A study of Mus musculus with 6 samples.

Results

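The genes of cholesterol and fatty acid synthesis were followed in mouse mammary carcinoma cells that had outlived methotrexate. The set was a list of 44 named genes, chosen by function with earlier results of these data known. It held 18 enzymes of sterol synthesis, 15 genes of the fatty acid branch and 11 regulators and sterol carriers. Of these, 42 had a probe set named for them alone and were measured, among 19933 genes tested, and the sterol enzyme Acat2 and the nuclear receptor Nr1h2 were not analysed here. Where a gene had several probe sets, the one with the highest mean over all arrays was taken. All 42 measured members lay above the dimmest 30% of genes in mean signal.

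The study compared MR13 cells with WTR- cells, 3 arrays of each. Both are 4T1, a carcinoma line from BALB/c mice, grown in culture. MR13 is a single line grown from 4T1 cells that survived selection with methotrexate (MTX), a folate antagonist, and WTR- is untreated 4T1. The sample labels give 13 µg/ml MTX for up to 2 weeks, until colonies of survivors could be seen. The text of the study differs in concentration and gives a longer exposure. Survivors were returned to drug-free medium by the study's account, and no label tells if the drug was in the dishes at the time of RNA extraction. The labels speak of triplicate wells, so p values measure the spread between these wells and not between independent selections.

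Each cell can make cholesterol from acetyl-CoA through mevalonate, isoprenoid units, squalene and lanosterol, and can make fatty acids from the same acetyl-CoA through malonyl-CoA and palmitate. Both routes are driven by the SREBP transcription factors, which SCAP escorts out of the endoplasmic reticulum when sterols are scarce and which INSIG proteins hold back when sterols are plentiful. The liver X receptors (LXR) sense oxidised sterols and switch on genes of sterol export. Fibroblasts, tumour cells and other dividing cells use these routes to build membranes.

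Values are log2 signals as normalized by the authors, and a difference is MR13 minus WTR- on that scale, with its standard error (SE) and p value from limma, corrected for all tested genes after Benjamini and Hochberg. Genes with an adjusted p below 0.05 are referred to as called. Signals of different probe sets are not on one scale of abundance, so levels were compared only within a gene. In bulk RNA, fewer cells that express a gene and less RNA per cell cannot be told apart.

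Transcripts of sterol synthesis were lower in MR13 cells along nearly the whole pathway, whereas those of the fatty acid branch were split. Of the 42 members, 24 were called lower in MR13 cells and 10 higher, and 8 were not called. The 34 called members compare with 37.6% of all genes called in either direction. Over all genes 20.6% were called lower and 17.0% higher. The 3 MR13 values lay wholly outside the range of the 3 WTR- values for 35 members, against 47.4% of all genes. Among the 17 sterol enzymes 14 fell and 1 rose, with a median difference of -0.57. Among the 15 genes of the fatty acid branch 7 fell and 5 rose, with a median of -0.06. The 10 measured regulators and carriers held 3 that fell and 4 that rose, with a median of 0.08, and the median over all genes was 0.01. A fall of at least 1.5-fold was called for 12 members, of which 7 were sterol enzymes, 4 belonged to the fatty acid branch and 1 was a regulator, against 6.36% of all genes. A rise of that size was called for 1 member, against 4.65% of all genes. The rises were less firm than the falls: members called higher numbered 6 in place of 10 without MR13 replicate 3 or without WTR- replicate 2, and those of the fatty acid branch 3 in place of 5 without MR13 replicate 2 or 3 or WTR- replicate 2 or 3. Members called lower numbered 23 to 25 whichever array was left out.

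**Figure D1:**
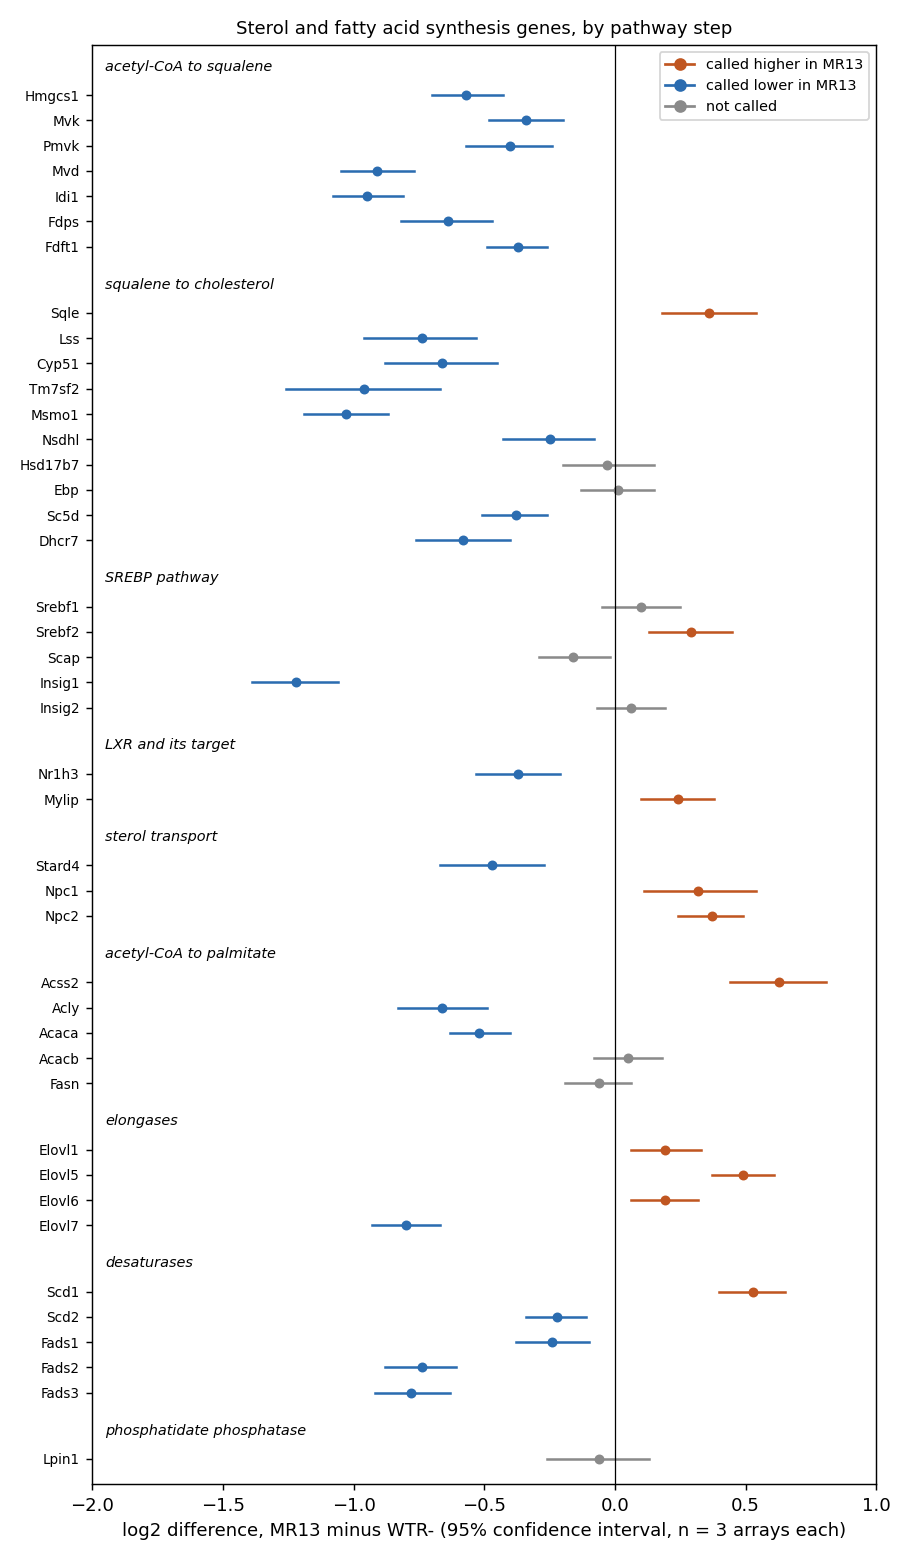
Log2 difference between MR13 and WTR- cells for the 42 measured genes, grouped by pathway step; points are the fitted differences and bars their 95% confidence intervals (n = 3 arrays each), with 0 marking no difference. Nearly all genes between acetyl-CoA and cholesterol lie left of 0, Sqle lies right of it at 0.36, and elongases and desaturases lie on both sides.

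MR13 replicate 1 stood apart from the other MR13 arrays for these genes. It held the lowest of the 3 MR13 values for 37 of the 42 members and the highest for none of them, and it was the lowest for 44.5% of all genes. Relative to the WTR- mean, the median sterol enzyme lay at -0.67, -0.47 and -0.49 on the 3 MR13 arrays, against 0.03, -0.02 and 0.00 on the 3 WTR- arrays. The fatty acid branch lay at -0.25, -0.02 and -0.06 on MR13 arrays and at 0.03, 0.01 and -0.03 on WTR- arrays. The median over all genes lay between -0.01 and 0.02 on every array. Without MR13 replicate 1, 13 sterol enzymes were called lower with a median of -0.49, and 7 genes of the fatty acid branch were called lower with a median of -0.04. The sterol median was thus well below the WTR- level on each MR13 array, whereas the fatty acid median was near that level on MR13 replicates 2 and 3 and below it on MR13 replicate 1.

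**Figure D2:**
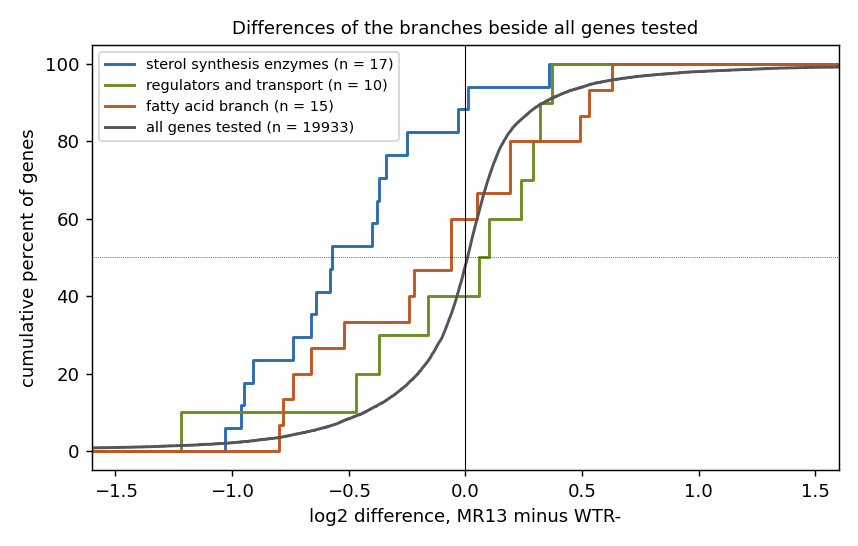
Cumulative share of genes (percent) against the log2 difference MR13 minus WTR- for the 17 sterol enzymes, the 10 regulators and carriers, the 15 genes of the fatty acid branch and all 19933 genes. At its median of -0.57 the curve of the sterol enzymes lies to the left of the others. The lowest regulator, at -1.22, and the lowest of all genes lie left of every sterol enzyme. The fatty acid branch spreads to both sides around a median of -0.06.

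The first stretch of the pathway, from acetyl-CoA to squalene, fell as a block: all 7 measured enzymes were called lower, by 1.27-fold to 1.93-fold. Among all genes 20.6% were called lower. Idi1, which interconverts the isoprenoid building blocks, measured 9.21, 9.16 and 9.32 in MR13 cells, against 10.18, 10.13 and 10.23 in WTR- cells. Every MR13 value lay below every WTR- value, and the difference was the largest of the stretch at -0.95 ± 0.06 (SE, adjusted p = 3.05e-06). Its other probe set gave -1.01. Mvd, the decarboxylase that makes the isoprenoid unit from mevalonate diphosphate, measured 7.90, 8.04 and 7.86 in MR13 cells and 8.88, 8.85 and 8.81 in WTR- cells. It was 1.88-fold lower in MR13 cells, at -0.91 ± 0.06 (adjusted p = 4.48e-06), and the groups lay far apart.

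Fdps, which condenses isoprenoid units to farnesyl diphosphate, measured 9.80, 10.10 and 9.98 in MR13 cells and 10.63, 10.62 and 10.56 in WTR- cells. MR13 replicate 1 was the lowest, the groups did not overlap, and the gene was 1.56-fold lower in MR13 cells (-0.64 ± 0.08, adjusted p = 1.68e-04). Hmgcs1, the cytosolic HMG-CoA synthase that feeds the mevalonate pathway, measured 9.20, 9.37 and 9.34 in MR13 cells and 9.89, 9.84 and 9.87 in WTR- cells. Again no values overlapped, with a difference of -0.57 ± 0.06 (adjusted p = 8.31e-05). The kinases Mvk and Pmvk, which phosphorylate mevalonate in turn, and Fdft1, the squalene synthase, fell less, by differences of -0.34, -0.40 and -0.37. Their groups did not overlap, and the adjusted p values were 0.00186, 0.00182 and 3.35e-04.

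**Figure D3:**
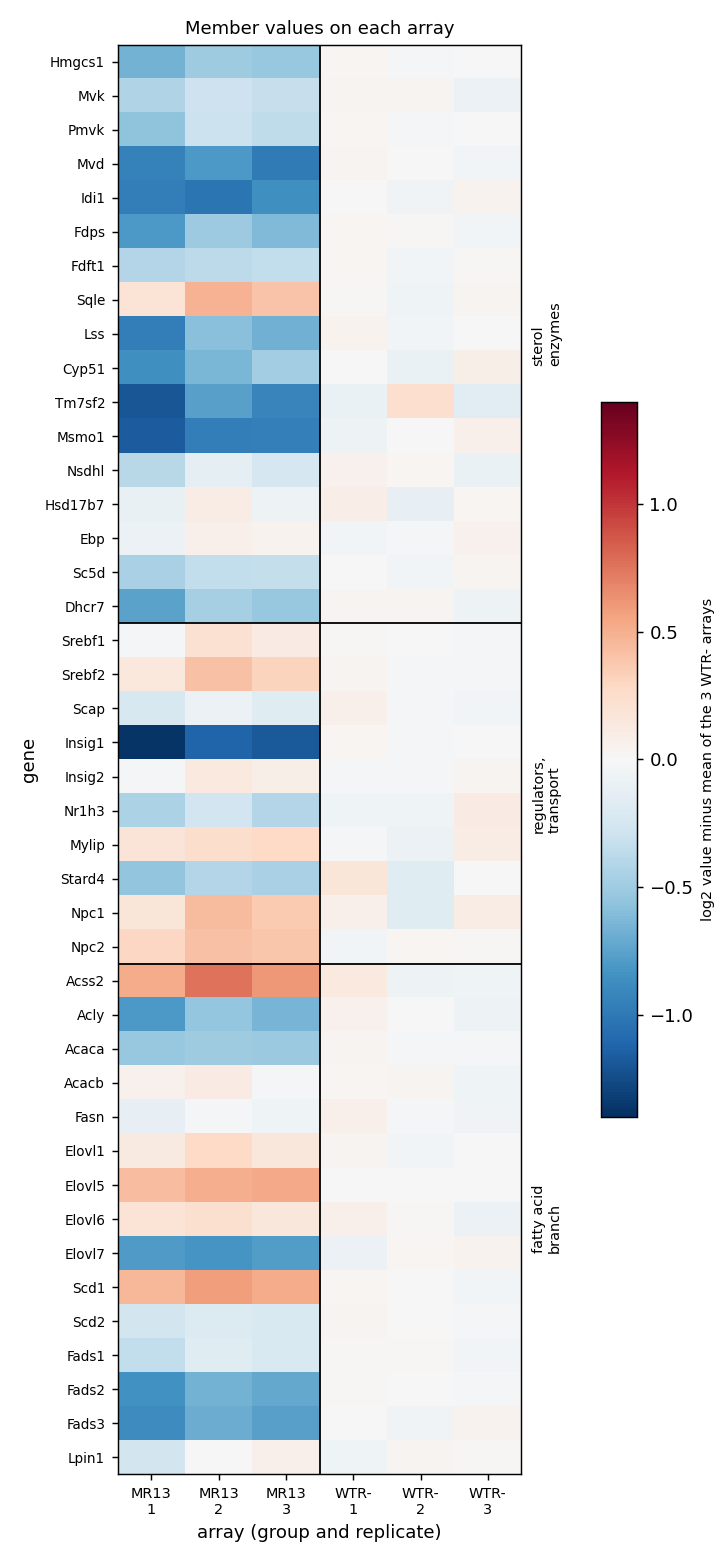
Each of the 42 measured genes (rows, by pathway step) on each array (columns, MR13 arrays left and WTR- arrays right), coloured by its log2 value minus the mean of the 3 WTR- arrays. Most sterol enzyme rows are low on all 3 MR13 arrays, with MR13 replicate 1 lowest in 15 of the 17.

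From squalene to cholesterol, 7 of 10 enzymes fell (70.0%), 1 rose (10.0%) and 2 were not called, against 20.6% and 17.0% of all genes called lower and higher. Msmo1, which removes the methyl groups at one ring carbon of lanosterol derivatives, measured 10.21, 10.41 and 10.42 in MR13 cells and 11.31, 11.38 and 11.45 in WTR- cells. It had the largest fall of any sterol enzyme, 2.05-fold (-1.03 ± 0.07, adjusted p = 5.39e-06), with a wide gap between the groups. Tm7sf2, a sterol reductase that saturates a ring bond, measured 7.05, 7.49 and 7.33 in MR13 cells and 8.16, 8.49 and 8.10 in WTR- cells. Its replicates spread more widely than those of other members, with SDs of 0.22 in MR13 cells and 0.21 in WTR- cells, yet the groups stayed apart at -0.96 ± 0.13 (adjusted p = 3.43e-04). Lss, which closes the rings to lanosterol, measured 8.20, 8.59 and 8.50 in MR13 cells and 9.22, 9.13 and 9.17 in WTR- cells. The difference was -0.74 ± 0.10 (adjusted p = 2.44e-04), and even the highest MR13 value lay below the lowest WTR- value. Cyp51, the lanosterol demethylase, measured 8.77, 8.99 and 9.14 in MR13 cells and 9.64, 9.54 and 9.71 in WTR- cells. It was 1.58-fold lower in MR13 cells (-0.66 ± 0.09, adjusted p = 4.34e-04), without overlap.

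Sqle, the squalene epoxidase that makes the first oxygenation of the sterol route, went the other way. It measured 10.49, 10.78 and 10.70 in MR13 cells and 10.31, 10.24 and 10.34 in WTR- cells. All MR13 values were above all WTR- values, and the gene was 1.28-fold higher in MR13 cells (0.36 ± 0.08, 95% confidence interval 0.18 to 0.54, adjusted p = 0.00517). Among sterol enzymes it was the only one called higher, and it kept that call in all 13 alternative analyses that refitted or rescaled the data. Hsd17b7 and Ebp, a keto reductase and an isomerase of the later steps, were not called. Hsd17b7 differed by -0.03 (95% confidence interval -0.20 to 0.15) and Ebp by 0.01 (-0.13 to 0.15), so differences larger than these bounds lay outside the intervals. The reductase Dhcr7, which makes cholesterol from its dehydro precursor, and the desaturase Sc5d fell by differences of -0.58 and -0.38 with adjusted p values of 3.62e-04 and 5.61e-04. Nsdhl, a dehydrogenase that acts with Msmo1, had a difference of -0.25 (adjusted p = 0.0279). That call was lost without MR13 replicate 1 (adjusted p = 0.0871) or 3 (0.0658), or without WTR- replicate 1 (0.0917) or 2 (0.0846).

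The DNA just upstream of these genes was examined for letters known as SREBP and partner motifs, taken from RefSeq promoter windows of assembly GRCm38.p6 that run from 250 bases before to 50 bases after each start. Such a window was given for 36 of the 44 members, and Fdps, Fdft1, Sqle, Stard4, Npc1, Scd1, Scd2 and Fads1 had none. The 36 include Acat2 and Nr1h2, which were not measured, whereas the shares of tested genes below are of measured genes only. Both strands were searched for the sterol regulatory element (SRE) TCACNCCAC, its core CACNCCAC, which lies within it. They were also searched for the E-box CACGTG and for the binding letters of NF-Y, CCAAT. A gene with several windows was counted as holding a motif if any of them held it. The CCAAT motif, the NF-Y box, was held in this sense by all 12 sterol enzymes that fell and had a window. Of these, Dhcr7 has 3 windows and Pmvk 2, and not all of those windows held the box. The box also stood in the windows of Hsd17b7 and Ebp, which were not called. It was thus held by 14 of 15 sterol enzymes (93.3%), against 41.7% of 15610 tested genes with a window. In the fatty acid branch 7 of 12 genes (58.3%) held one. The SRE letters were found in 1 member (2.78%), against 1.4% of the same tested genes, and the core in 4 members (11.1%), against 7.31%. These 4 include the unmeasured Acat2, which was also the sterol enzyme without an NF-Y box. The E-box was found in 6 members (16.7%), against 9.5%. Without the dimmest 30% of genes, which hold no member, the shares of 11062 tested genes were 41.8% for the NF-Y box, 1.46% for the SRE, 7.88% for the core and 11.1% for the E-box. A match is a description of the letters and was not linked to binding by any measurement here.

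The 250 bases upstream of 6 genes are shown to let these matches be read in place. Hmgcs1 and Elovl7 are the called sterol enzyme and the called fatty acid gene that hold the SRE or its core there. Insig1, which also holds the core, was included by name. Msmo1, Tm7sf2 and Idi1, the sterol enzymes with the largest falls, were added after the motif counts had been seen. Capitals mark the SRE or its core and each NF-Y box, CCAAT, written ATTGG where it lies on the opposite strand. All are written 5′ to 3′ towards the gene. The Hmgcs1 window lies at chr13:119690101-119690350 on the plus strand, Elovl7 at chr13:108214154-108214403 (plus), Insig1 at chr5:28071162-28071411 (plus), Msmo1 at chr8:64733579-64733828 (minus), Tm7sf2 at chr19:6067851-6068100 (minus) and Idi1 at chr13:8885356-8885605 (plus).
Hmgcs1: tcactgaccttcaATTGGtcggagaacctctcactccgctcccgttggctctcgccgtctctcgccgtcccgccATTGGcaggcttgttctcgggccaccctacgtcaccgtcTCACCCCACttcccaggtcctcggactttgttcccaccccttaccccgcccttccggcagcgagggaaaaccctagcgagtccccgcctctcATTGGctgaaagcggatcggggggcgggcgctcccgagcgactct
Elovl7: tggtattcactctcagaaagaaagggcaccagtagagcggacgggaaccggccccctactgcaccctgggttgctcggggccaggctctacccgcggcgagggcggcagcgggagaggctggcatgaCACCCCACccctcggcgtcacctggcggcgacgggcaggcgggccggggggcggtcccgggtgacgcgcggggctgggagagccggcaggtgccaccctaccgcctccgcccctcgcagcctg
Insig1: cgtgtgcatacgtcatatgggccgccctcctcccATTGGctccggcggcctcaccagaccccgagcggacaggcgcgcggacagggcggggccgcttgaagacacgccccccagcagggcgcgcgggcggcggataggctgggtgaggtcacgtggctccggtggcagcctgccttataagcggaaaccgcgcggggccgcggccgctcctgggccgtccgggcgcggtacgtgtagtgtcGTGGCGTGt
Msmo1: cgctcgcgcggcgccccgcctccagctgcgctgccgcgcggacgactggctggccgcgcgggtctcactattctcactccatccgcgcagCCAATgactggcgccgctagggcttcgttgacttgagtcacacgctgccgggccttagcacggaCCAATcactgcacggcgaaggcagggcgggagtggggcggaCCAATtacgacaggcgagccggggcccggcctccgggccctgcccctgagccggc
Tm7sf2: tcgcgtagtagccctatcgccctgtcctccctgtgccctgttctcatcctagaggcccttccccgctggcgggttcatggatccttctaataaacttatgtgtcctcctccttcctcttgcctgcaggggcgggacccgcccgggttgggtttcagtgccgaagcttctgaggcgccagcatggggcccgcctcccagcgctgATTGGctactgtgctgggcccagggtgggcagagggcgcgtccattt
Idi1: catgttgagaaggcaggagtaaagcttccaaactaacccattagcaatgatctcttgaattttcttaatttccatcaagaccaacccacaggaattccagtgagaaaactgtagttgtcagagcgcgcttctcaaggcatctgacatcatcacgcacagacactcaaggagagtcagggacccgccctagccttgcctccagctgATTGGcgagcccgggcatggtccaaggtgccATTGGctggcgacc
Counting back from the gene's start, the SRE of Hmgcs1 covers positions -137 to -129, with 3 NF-Y boxes around it. The core in Elovl7 covers -123 to -116, and that window has no NF-Y box. In Insig1 the core lies on the opposite strand at -9 to -2 and reads GTGGCGTG. Msmo1 has 3 NF-Y boxes, Idi1 has 2 and Tm7sf2 has 1, and none of these windows holds the SRE or its core.

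Among the genes that govern the pathway, Insig1 fell more than any other member. Insig1 encodes a protein that retains the SCAP and SREBP complex and is itself an SREBP target. It measured 10.30, 10.56 and 10.50 in MR13 cells and 11.70, 11.65 and 11.68 in WTR- cells. The gap between the groups was many times the spread within them, a 2.33-fold fall (-1.22 ± 0.07, 95% confidence interval -1.39 to -1.06, adjusted p = 2.06e-06). Its relative Insig2 measured 10.11, 10.27 and 10.21 in MR13 cells and 10.12, 10.11 and 10.17 in WTR- cells. These values overlapped, with a difference of 0.06 (-0.07 to 0.19, adjusted p = 0.457).

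Neither transcript of the SREBP factors themselves was called lower. Srebf2, which encodes the form that favours sterol genes, measured 10.20, 10.46 and 10.37 in MR13 cells and 10.09, 10.03 and 10.04 in WTR- cells. It was 1.23-fold higher in MR13 cells (0.29 ± 0.07, adjusted p = 0.00948) and the groups did not overlap. Srebf1, whose product favours fatty acid genes, measured 9.56, 9.79 and 9.70 in MR13 cells and 9.60, 9.59 and 9.55 in WTR- cells. MR13 replicate 1 fell within the WTR- range, and the difference of 0.10 (-0.05 to 0.25) was not called (adjusted p = 0.278). Scap, the escort protein, measured 10.20, 10.34 and 10.25 in MR13 cells and 10.49, 10.39 and 10.38 in WTR- cells. Its values did not overlap, but the difference of -0.16 (-0.29 to -0.02) missed the threshold at an adjusted p of 0.0748. Without MR13 replicate 2 it was -0.20 and was called (adjusted p = 0.0480). The arrays measure transcripts only, and cleavage of SREBP was not measured.

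Nr1h3, which encodes the LXR alpha receptor, measured 6.73, 6.91 and 6.77 in MR13 cells and 7.12, 7.12 and 7.29 in WTR- cells. It was 1.29-fold lower in MR13 cells (-0.37 ± 0.07, adjusted p = 0.00289), with no overlap. Mylip, an LXR-induced ubiquitin ligase that removes lipoprotein receptors, measured 8.83, 8.89 and 8.93 in MR13 cells and 8.63, 8.56 and 8.75 in WTR- cells. All MR13 values were higher and the difference was 0.24 ± 0.06 (adjusted p = 0.0151), a call that was lost without MR13 replicate 3 (0.0596) or WTR- replicate 2 (0.0619).

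The carriers of unesterified sterol moved apart. Npc2, a lysosomal protein that hands cholesterol to the membrane protein Npc1, measured 11.35, 11.47 and 11.44 in MR13 cells and 11.02, 11.08 and 11.07 in WTR- cells. The groups were separate and the gene was 1.29-fold higher in MR13 cells (0.37 ± 0.05, adjusted p = 6.05e-04). Npc1 itself measured 8.96, 9.24 and 9.16 in MR13 cells and 8.86, 8.62 and 8.90 in WTR- cells. It was higher by 0.32 ± 0.10 (adjusted p = 0.0252), with only a narrow gap between the groups. Its call was lost without MR13 replicate 2 (0.0940), MR13 replicate 3 (0.0772) or WTR- replicate 2 (0.0824). Stard4, a cytosolic sterol carrier and an SREBP target, measured 8.65, 8.79 and 8.75 in MR13 cells and 9.37, 9.03 and 9.20 in WTR- cells. It fell by 0.47 on the log2 scale (SE 0.09, adjusted p = 0.00219), and WTR- replicate 2 came closest to the MR13 values.

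In the fatty acid branch the enzymes that supply and extend the chain did not move as a block. Between acetyl-CoA and palmitate, 2 of 5 genes fell (40.0%), 1 rose (20.0%) and 2 were not called. Among all genes 20.6% were called lower and 17.0% higher, so the share that rose was near that of all genes. Acly, which cleaves citrate to cytosolic acetyl-CoA, measured 9.68, 9.94 and 9.83 in MR13 cells and 10.54, 10.49 and 10.41 in WTR- cells. It was 1.58-fold lower in MR13 cells, with no overlap (-0.66 ± 0.07, adjusted p = 1.17e-04). Acss2, which makes acetyl-CoA from acetate instead, measured 9.60, 9.84 and 9.69 in MR13 cells and 9.22, 9.01 and 9.02 in WTR- cells. It was 1.54-fold higher in MR13 cells (0.63 ± 0.08, adjusted p = 2.85e-04) and was the only member called higher by at least 1.5-fold. Thus the transcripts for the citrate and the acetate source of the same metabolite went in opposite directions.

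Acaca, the acetyl-CoA carboxylase of the cytosol, measured 9.19, 9.22 and 9.20 in MR13 cells and 9.76, 9.69 and 9.70 in WTR- cells. Its groups were tight and separate, with a difference of -0.52 ± 0.05 (adjusted p = 4.55e-05), and its other probe set gave -0.58. Fasn, the synthase that builds palmitate, measured 11.19, 11.28 and 11.24 in MR13 cells and 11.37, 11.28 and 11.25 in WTR- cells. These overlapped, and the difference of -0.06 (-0.19 to 0.06) was not called (adjusted p = 0.440). Acacb, the carboxylase of the mitochondrial surface, differed by 0.05 (-0.08 to 0.18) and was not called either. Lpin1, a phosphatidate phosphatase of glycerolipid synthesis and an SREBP target, measured 7.55, 7.80 and 7.88 in MR13 cells and 7.75, 7.85 and 7.82 in WTR- cells. The groups overlapped, with a difference of -0.06 (-0.26 to 0.13).

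**Figure D4:**
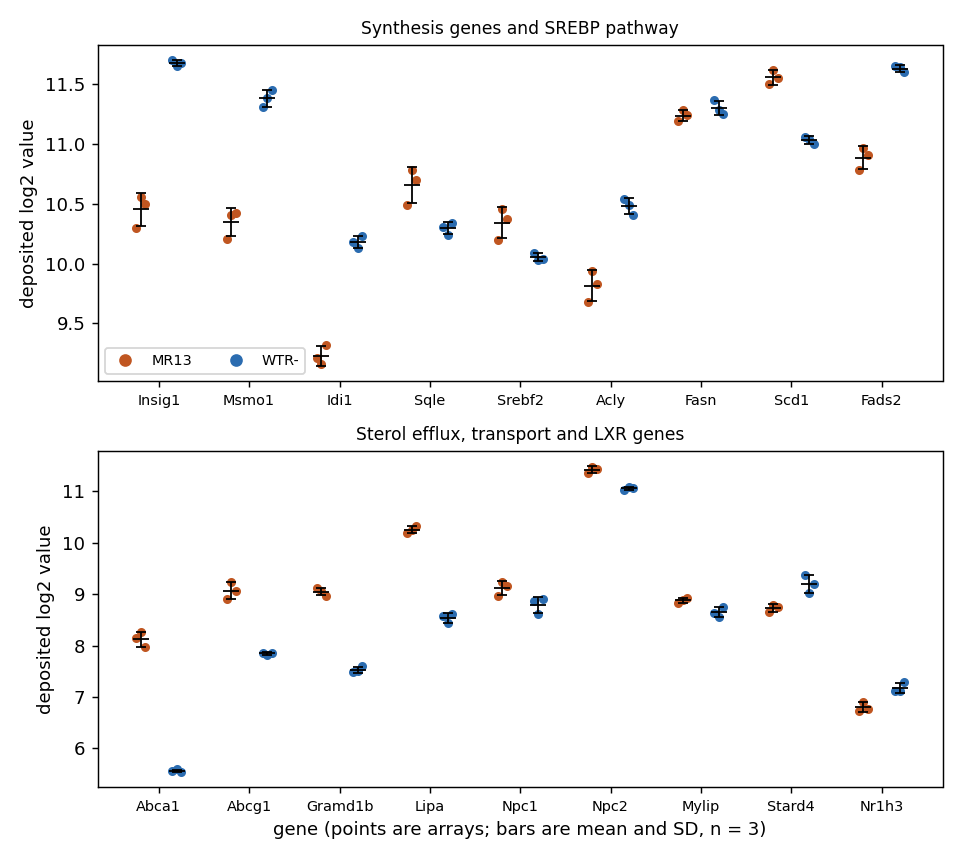
Deposited log2 values of 18 genes on each array, synthesis and SREBP pathway genes in the upper panel and sterol efflux, transport and LXR genes in the lower; points are single arrays, MR13 left and WTR- right for each gene, and bars are the mean and SD (n = 3 each). Insig1, Msmo1 and Idi1 show wide gaps with MR13 below, Sqle and Scd1 lie higher in MR13 cells, the Fasn values overlap, and Abca1, Abcg1, Gramd1b and Lipa lie far higher in MR13 cells.

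Of the 4 elongases, which lengthen fatty acids beyond palmitate, 3 rose (75.0%) and 1 fell (25.0%), against 17.0% and 20.6% of all genes. The share that fell was thus near that of all genes. Elovl7, which acts on saturated long chains, measured 9.54, 9.51 and 9.56 in MR13 cells and 10.26, 10.36 and 10.39 in WTR- cells. With both groups tight, it was 1.74-fold lower in MR13 cells (-0.80 ± 0.06, adjusted p = 5.67e-06). Elovl5, which extends polyunsaturated chains, measured 11.98, 12.06 and 12.08 in MR13 cells and 11.54, 11.56 and 11.55 in WTR- cells. It was 1.41-fold higher in MR13 cells (0.49 ± 0.05, adjusted p = 7.77e-05), without overlap. Elovl6, which extends palmitate, measured 11.56, 11.59 and 11.52 in MR13 cells and 11.44, 11.38 and 11.28 in WTR- cells. Its difference was small, 0.19 ± 0.06 (adjusted p = 0.0316), and the call was lost without any single MR13 array (0.0708, 0.0896 and 0.0566 without replicates 1, 2 and 3) and without WTR- replicate 2 (0.0705) or 3 (0.0981). Elovl1, which makes very long chains, measured 11.04, 11.19 and 11.07 in MR13 cells and 10.95, 10.87 and 10.91 in WTR- cells. It was likewise higher by 0.19 ± 0.06 (adjusted p = 0.0298), a call lost without MR13 replicate 2 (0.0914) or 3 (0.0594), or without WTR- replicate 2 (0.102) or 3 (0.0658).

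The desaturases, which put unsaturated bonds into the chain, were split between the paralogues Scd1 and Scd2. Scd1 measured 11.50, 11.62 and 11.55 in MR13 cells and 11.06, 11.04 and 11.00 in WTR- cells. All MR13 values were higher, by 0.53 ± 0.05 or 1.44-fold (adjusted p = 6.60e-05). Scd2 measured 12.85, 12.92 and 12.89 in MR13 cells and 13.14, 13.10 and 13.08 in WTR- cells. It was 1.17-fold lower in MR13 cells (-0.22 ± 0.05, adjusted p = 0.00720), and lost the call when the arrays were quantile normalized again (-0.13, adjusted p = 0.122). Both genes make monounsaturated fatty acids and are related in sequence, and whether their probe sets respond to each other's transcript was not tested.

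The 3 Fads genes, which lie close together on chromosome 19 in RefSeq GRCm38.p6, all fell. Fads3, a relative of the polyunsaturated fatty acid desaturases, measured 10.18, 10.36 and 10.30 in MR13 cells and 11.05, 11.01 and 11.11 in WTR- cells. It was 1.71-fold lower in MR13 cells (-0.78 ± 0.06, adjusted p = 1.50e-05). Fads2, which begins the synthesis of polyunsaturated fatty acids, measured 10.78, 10.97 and 10.91 in MR13 cells and 11.65, 11.64 and 11.60 in WTR- cells. Its fall was of nearly the same size (-0.74 ± 0.06, adjusted p = 1.60e-05), and neither gene overlapped between groups. Fads1, a later desaturase of the same route, measured 11.02, 11.19 and 11.15 in MR13 cells and 11.38, 11.38 and 11.33 in WTR- cells. It fell less, with a difference of -0.24 ± 0.06 (adjusted p = 0.0113), though the groups stayed apart.

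Other genes of sterol and fatty acid metabolism, listed by role with earlier results of these data known, were set beside the members. Of 74 such genes 61 were measured, and 25 were called higher in MR13 cells and 14 lower, with a median difference of 0.08. That is 41.0% called higher, against 17.0% of all genes, and 23.0% called lower, against 20.6%, so the share that fell was near that of all genes. A rise of at least 1.5-fold was called for 12 and a fall of that size for 3, against 4.65% and 6.36% of all genes. Export, storage and transport held the largest rise and the largest fall of this list, with 5 of 10 genes higher and 2 lower. Abca1, which exports cholesterol to apolipoproteins and is an LXR target, measured 8.14, 8.26 and 7.97 in MR13 cells and 5.56, 5.59 and 5.54 in WTR- cells. It was 5.91-fold higher in MR13 cells (2.56 ± 0.08, adjusted p = 3.48e-08). Abcg1, a second LXR-induced exporter, measured 8.91, 9.23 and 9.07 in MR13 cells and 7.86, 7.82 and 7.86 in WTR- cells, a rise of 2.34-fold (adjusted p = 3.54e-06). This gene, Gramd1b, Gramd1a, Lrp8 and Scarb1 were picked after their values had been seen.

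Gramd1b, which moves cholesterol from the plasma membrane to the endoplasmic reticulum, measured 9.11, 9.07 and 8.97 in MR13 cells and 7.49, 7.51 and 7.60 in WTR- cells. It was 2.85-fold higher in MR13 cells (1.51 ± 0.06, adjusted p = 1.96e-07). Its paralogue Gramd1a, of the same family of sterol carriers, went the other way, at 8.57, 8.68 and 8.77 in MR13 cells and 9.54, 9.54 and 9.64 in WTR- cells. That was a 1.87-fold fall (-0.90 ± 0.07, adjusted p = 8.11e-06). Lipa, the lysosomal lipase that frees cholesterol from its esters, measured 10.18, 10.25 and 10.32 in MR13 cells and 8.57, 8.43 and 8.61 in WTR- cells. This was a 3.28-fold rise (1.71 ± 0.07, adjusted p = 1.75e-07), and the groups did not overlap for any of these 5 genes. Of 4 measured genes of sterol synthesis and uptake outside the set, 2 rose, 1 fell and 1 was not called. Vldlr, a lipoprotein receptor, was 1.70-fold higher in MR13 cells, and Cyb5r3, which passes electrons to sterol and fatty acid desaturases, 1.76-fold higher. Lrp8, another receptor of the lipoprotein receptor family, fell, at -0.39 (adjusted p = 2.97e-04), and the lipoprotein receptor Scarb1 differed by 0.13 and was not called (adjusted p = 0.126), but was called higher without MR13 replicate 1 (adjusted p = 0.0392) or after repeated quantile normalization (0.0425). In SREBP processing and sterol-dependent degradation, 1 of 5 measured genes rose (20.0%), 2 fell (40.0%) and 2 were not called. The rise was that of Rnf145, a ubiquitin ligase, which was 1.43-fold higher. The falls were those of Erlin1, a membrane protein that restrains SREBP activation, at -0.41, and Rnf139 at -0.25. On the isoprenoid side branches 2 of 7 measured genes rose (28.6%) and 2 fell (28.6%), against 17.0% and 20.6% of all genes. The other 3 were not called. Called genes of this role included Pdss2, which builds the tail of coenzyme Q, at -0.71, and the farnesyltransferase subunit Fntb at 0.35.

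The arrays of each group were alike, with r across all probe sets of 0.9980 to 0.9987 within groups and 0.9842 to 0.9865 between them. The cells carried the keratin Krt8, at 13.53 in MR13 cells and 13.41 in WTR- cells. Of 5 epithelial markers 4 fell, with Epcam at 6.71 in MR13 cells and 11.01 in WTR- cells, and Cdh1 at 7.81 in MR13 cells and 11.05 in WTR- cells. The log2 of the summed signal of the 5 epithelial markers was 14.21 to 14.33 on MR13 arrays and 14.56 to 14.63 on WTR- arrays. Of 5 fibroblast markers 2 rose (Pdgfra by 1.82 and Dcn by 1.70), and their sum was 10.44 to 10.62 on MR13 arrays and 9.03 to 9.12 on WTR- arrays. Myeloid markers gave 1 rise in 5 (sum 9.35 to 9.45 in MR13 cells, 9.09 to 9.17 in WTR- cells), with Ptprc at 5.22 in MR13 cells and 5.17 in WTR- cells. Adipocyte markers gave 1 rise in 5, with Adipoq at 4.19 in both, and endothelial (4 measured) and lymphocyte (3 measured) markers gave none. Among all genes 17.0% were called higher and 20.6% lower, so 1 rise in 5 (20.0%) was near the share of all genes. These markers moved between the same groups as the lipid genes, and their part in the lipid results was not tested.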

How the data were processed

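Total RNA of 3 MR13 and 3 WTR- cultures was hybridised to Affymetrix Mouse Gene 1.0 ST arrays, with 1 biotin-labelled sample per array. The deposited values were log2 signals of 28350 probe sets, normalized by the authors. Their processing notes name affy and limma, and versions, background correction, summarization and genome build are not given in the sources used here. Array medians were 6.57 to 6.62. For arrays, their number limits the precision, and background signal can understate differences of dim genes. The annotation named 21780 probe sets for 1 gene, 1618 for several and left 4952 unnamed here. The probe set with the highest mean stood for each gene, giving 19933 genes. Symbols of the 42 measured members were checked against RefSeq by Entrez ID and all 42 matched. The table held 0 columns from samples outside the series.

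MR13 was compared with WTR- by lmFit and eBayes (limma 3.58.1, R 4.3.3), two-sided, without covariates. Values are means ± SD or differences ± SE, with Benjamini-Hochberg adjustment across the 19933 genes. No set of genes was tested as a set. Scripts were tested on simulated data. Values on all arrays are given for the 4 called members with the largest difference in each role and for a fixed list of key genes. Of the other lipid genes, the 2 called genes with the largest difference in each role are named. Further ones were added after their values had been seen. The members, lists and motifs were chosen with earlier results of these data known. Alternatives were repeated quantile normalization, centring on array medians, leaving out the dimmest 30% of genes, averaging the probe sets of a gene, an intensity trend with a robust prior, the replicate number as a block, leaving out each array, a 1.5-fold minimum, and the methods' t-test, a plain t-test that the study names for comparing groups in general, run on the same values.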

Additional observations from a re-analysis of the deposited data

How the results depend on the processing

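Of the 42 members, 31 kept their direction and call in all 13 alternatives and 11 changed in at least 1. Members called lower numbered 24, and 23 to 25 with each array left out. Members called higher numbered 10, 5 by the methods' t-test, and 6 to 10 with each array left out, being 6 without MR13 replicate 3 or WTR- replicate 2. A 1.5-fold minimum left 12 members lower and 1 higher. For sterol synthesis enzymes called lower, 14 became 7 with that minimum (13 to 14 with each array left out), and sterol enzymes called higher numbered 0 in place of 1 (1 whichever array was left out). For the fatty acid branch, 7 called lower became 4 (7 whichever array was left out), and 5 called higher became 1 with the minimum, 3 by the methods' t-test and 3 to 5 with each array left out, being 3 without MR13 replicate 2 or 3 or WTR- replicate 2 or 3. Of the other lipid genes, 25 called higher became 12 and 14 called lower became 3 (25 to 27 and 13 to 14 with each array left out). The sterol median ran from -0.60 to -0.49 and the fatty acid median from -0.13 to -0.04 with each array left out. Small differences that changed sign were Hsd17b7 (0.03 after repeated quantile normalization, 0.01 without MR13 replicate 1, 0.02 without WTR- replicate 1; -0.09 to 0.02 with each array left out), Ebp (-0.02 without MR13 replicate 2, -0.01 without MR13 replicate 3 or WTR- replicate 1; -0.02 to 0.05 with each array left out) and Lpin1 (0.00 after repeated quantile normalization, 0.03 without MR13 replicate 1; -0.13 to 0.03 with each array left out). The cause was not tested. Besides the calls already named, the methods' t-test lost Srebf2 (adjusted p = 0.0564), Nsdhl (0.112), Mylip (0.0537), Npc1 (0.134), Elovl1 (0.0601) and Elovl6 (0.0586), and Scap was called without the dimmest 30% of genes (0.0451) or with the intensity trend and robust prior (0.0216).

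Same-numbered arrays deviated together weakly or not at all (r = 0.13, -0.00 and 0.18 for replicates 1, 2 and 3), and the numbers were not taken as pairs. MR13 replicate 1 gave 0.02 and -0.12 with WTR- replicates 2 and 3. MR13 replicate 3 gave -0.20 and -0.02 with WTR- replicates 1 and 2. Both thus correlated best with their own number, whereas MR13 replicate 2 did not. With the replicate block, 7442 genes were called in place of 7497, 9 members were called higher and 24 lower, 14 sterol enzymes and 7 fatty acid genes lower, and Elovl1 lost its call (adjusted p = 0.0554). The replicate block left the sterol median at -0.57 and the fatty acid median at -0.06. A line selected once, 3 wells per group and the lack of a detection call limit all values.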

Other observations

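Genes that supply citrate and NADPH to lipid synthesis rose in 3 of 4 cases (75.0%) and fell in 1 (25.0%), against 17.0% of all genes called higher and 20.6% called lower. Idh1, a cytosolic NADPH source, measured 13.13, 13.05 and 13.05 in MR13 cells and 11.89, 11.84 and 11.80 in WTR- cells. It was 2.35-fold higher in MR13 cells (limma adjusted p = 3.62e-07), with no overlap. Me1, the malic enzyme, and Pgd of the pentose phosphate pathway were 1.43-fold and 1.28-fold higher, named after their values had been seen. Slc25a1, which exports citrate from mitochondria to the cytosol where Acly acts, was 1.48-fold lower (adjusted p = 3.22e-04).

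Of 7 genes of fatty acid breakdown, 4 rose (57.1%) and 1 fell (14.3%), against 17.0% and 20.6% of all genes. Cpt1a, which admits fatty acids to mitochondria, measured 10.21, 10.23 and 10.16 in MR13 cells and 9.17, 9.14 and 9.11 in WTR- cells. It was 2.08-fold higher in MR13 cells (adjusted p = 6.15e-07), and Cpt2 of the same shuttle was higher by 0.54. Among genes of fatty acid activation and glycerolipid synthesis 4 of 10 rose and 3 fell, with Dgat2 and Dgat1, which make triglyceride, 1.75-fold and 1.51-fold higher. Of the partners of elongation, 3 of 8 rose (37.5%) and 2 fell (25.0%), among them the dehydratase Hacd1 at 0.82 and the elongase Elovl4 at -0.78. Of 6 genes of fatty acid synthesis control, 1 was called higher (16.7%), a share near that of all genes. It was Prkaa1, a catalytic subunit of AMP-activated kinase, at 0.29.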
